A study of Mus musculus with 12 samples.

Results

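The genes described here are the matrix metalloproteinases, the ADAMTS proteases and the tissue inhibitors of metalloproteinases (Timps) on an Affymetrix mouse array. A gene was a member when a probe set carried 1 gene symbol and that symbol was Mmp, Adamts or Timp followed by its number. The rule found 37 of 18193 genes, measured by 70 of 45037 probe sets: 18 Mmp genes, 15 Adamts genes and 4 Timp genes. RNA from 6 cultures of mesenchymal stem cells (MSCs) kept together with hematopoietic stem cells (HSCs), called co-culture here, was compared with RNA from 6 cultures of MSCs alone, called MSC only, all taken on day 6. MSCs were sorted as PDGFR-α+ Sca-1+ cells lacking CD31, CD45 and TER119, and HSCs as lineage-negative Sca-1+ c-Kit+ cells. Both groups came from C57BL/6 mice that the labels give as male and 6 weeks old, and neither group carried a deletion or received a drug according to the labels. Cell contact in the arrayed co-cultures, a second sort before RNA was taken, and the mouse or preparation behind each culture are not stated by the labels or methods, which took MSCs for co-cultures from EGFP-expressing mice without naming those of the arrays. P-values thus describe only how these 12 samples vary, which may be technical.

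Matrix metalloproteinases are zinc-dependent endopeptidases, most of them secreted as inactive proenzymes, that cut collagens, elastin, laminin and other matrix proteins at or near the cell surface. ADAMTS proteases are secreted, carry thrombospondin repeats and cut proteoglycans such as aggrecan and versican or process procollagens. Timps bind the active site of these enzymes, and in connective tissue the balance of protease and inhibitor sets how fast matrix is turned over.

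Many of the Mmp genes lie next to each other. On chromosome 9, RefSeq (GRCm38.p6) places 9 of the members in the order Mmp13, Mmp12, Mmp1b, Mmp3, Mmp1a, Mmp10, Mmp8, Mmp20 and Mmp7. The upstream sequences of 4 of them are shown, picked by their array values. Mmp12 and Mmp8 were high on the same arrays, and Mmp13 was high on the others. Mmp7 was the member with the smallest p-value between groups, which did not pass adjustment. Each line gives the 150 bases before an annotated start on the plus strand, 5′ to 3′, and the capitals mark the AP-1 motif TGANTCA.
Mmp13, chr9:7272364-7272513: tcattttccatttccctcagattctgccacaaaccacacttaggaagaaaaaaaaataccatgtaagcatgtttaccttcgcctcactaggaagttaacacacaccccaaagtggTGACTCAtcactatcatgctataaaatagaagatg
Mmp12, first start, chr9:7344247-7344396: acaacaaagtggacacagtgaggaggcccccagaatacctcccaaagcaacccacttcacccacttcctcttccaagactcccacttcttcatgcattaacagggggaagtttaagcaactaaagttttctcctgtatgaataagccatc
Mmp12, second start, chr9:7347224-7347373: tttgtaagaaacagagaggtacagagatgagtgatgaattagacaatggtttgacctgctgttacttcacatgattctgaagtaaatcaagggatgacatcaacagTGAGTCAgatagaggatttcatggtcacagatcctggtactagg
Mmp8, chr9:7558279-7558428: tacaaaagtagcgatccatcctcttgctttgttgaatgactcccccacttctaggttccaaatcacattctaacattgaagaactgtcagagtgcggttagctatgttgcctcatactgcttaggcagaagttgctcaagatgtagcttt
Mmp7, first start, chr9:7691940-7692089: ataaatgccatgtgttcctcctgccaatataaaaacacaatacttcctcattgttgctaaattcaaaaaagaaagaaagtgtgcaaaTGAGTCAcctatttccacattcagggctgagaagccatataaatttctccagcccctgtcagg
Mmp7, second start, chr9:7692191-7692340: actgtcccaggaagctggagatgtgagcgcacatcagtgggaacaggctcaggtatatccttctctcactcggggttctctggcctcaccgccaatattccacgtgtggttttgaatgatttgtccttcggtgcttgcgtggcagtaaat

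The AP-1 motif lay 35 bases before the start of Mmp13, 44 bases before the second start of Mmp12 and 63 bases before the first start of Mmp7. These letters were not found in the 250 bases before the start of Mmp8, nor in the 150 bases shown for the other starts of Mmp12 and Mmp7. Of the members, 23 matched a RefSeq promoter entry by symbol, with 26 starts. Within the 250 bases before the start, the motif was present in 8 of the 9 genes of the chromosome 9 cluster and in 0 of the other 14, against 6.75% of all 32851 promoters. TATAAA, which does not overlap it, was searched on both strands and was present in 7 of the 9 cluster genes, Mmp12 and Mmp8 being the exceptions, against 12.4% of all promoters. Member genes were counted when any of their starts matched, whereas the shares of all promoters are per start, so the measures are unlike. In the cluster, Mmp12 and Mmp7 had 2 starts each. A motif match describes the letters only and is not a measured binding site.

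Array signal is in linear units as deposited, and the mean signal at the median gene was 172.85. Gene levels are given by the brightest probe set of each gene, as signal and as the percentile of its mean among the 18193 genes, which ranks abundance only roughly since probes differ in brightness. Differences are co-culture minus MSC only on the log2(signal + 16) scale, tested with limma and adjusted over all probe sets. The first principal component, computed on all probe sets other than the members, carried 21.5% of the variance and put 3 cultures of each group on either side. On its positive side were co-cultures 1, 4 and 6 and MSC only cultures 2, 4 and 6, and on its negative side the other 6. Sex-linked genes went against the label male. Xist, the RNA that silences an X chromosome in female cells, had a signal of 16810 to 21978 in cultures 3 and 4 of both groups, where the Y-linked gene Eif2s3y was at 0.5 to 13.6. In the MSC only cultures 1, 2, 5 and 6 Xist was at 60.5 to 118 and Eif2s3y at 2604 to 2845, whereas co-cultures 1, 2, 5 and 6 had both, with Xist at 13136 to 16604 and Eif2s3y at 1022 to 1331. Values without cultures 3 and 4, and in those cultures alone, are therefore given beside the main value for several members. Leaving out cultures 3 and 4 does not remove the mismatch, since Xist separates the groups in the cultures that are kept. There, and so in the main comparison, a group difference cannot be told apart from RNA from cells of a second source. The labelled cell type was checked by marker lists. The 16 stromal markers had a median percentile of 71.9 and the 15 macrophage markers one of 99.7, and neither list held a gene that passed the adjusted threshold between groups. In the MSC only cultures the macrophage list summed to 285551 to 395577 and the stromal list to 24508 to 46418. Macrophage transcripts were thus bright in cultures labelled as MSCs alone. Levels of the members therefore describe whole cultures, and the cells behind them were not identified.

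The inhibitors included the brightest members, and the proteases ranged widely. Of the 37 genes, 15 were above the 50th percentile and 5 above the 90th, with a median at percentile 46.6. The 5 were Timp2, Mmp12, Timp1, Mmp13 and Mmp14. The Timps had a median percentile of 85.0, the Mmps 47.9 and the Adamts genes 43.5, and 0 Adamts genes were above the 90th. Low ranks were held by Adamts20 at percentile 6.00 and Mmp1b at 6.07. Mmp1a and Mmp1b are related genes, and whether their dim probe sets share signal was not tested.

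Between the groups, 0 of the 37 genes had an adjusted p under 0.05 in limma, where 0.011% of all genes did, and the smallest adjusted p of a member was 0.40, for Mmp7. At an unadjusted p under 0.05, 2 members were higher in co-culture (Mmp7 and Adamts15), against 2.47% of all genes. In the other direction 4 members (Mmp23, Timp4, Mmp1b and Timp3) were lower in co-culture, against 1.47% of all genes. The groups did not overlap for 1 member that was higher, Mmp7, against 0.132% of all genes, and for 0 members that were lower, against 0.077%. In all, 18 members had a higher and 19 a lower mean in co-culture, and the median difference was -0.00, beside 0.01 over all genes. The 33 proteases had a median difference of 0.04 and the 4 Timps one of -0.43. The stromal marker list had a median difference of -0.24 and the macrophage list one of -0.00, and the part of the stromal shift in the values of the Timps was not tested.

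**Figure D1:**
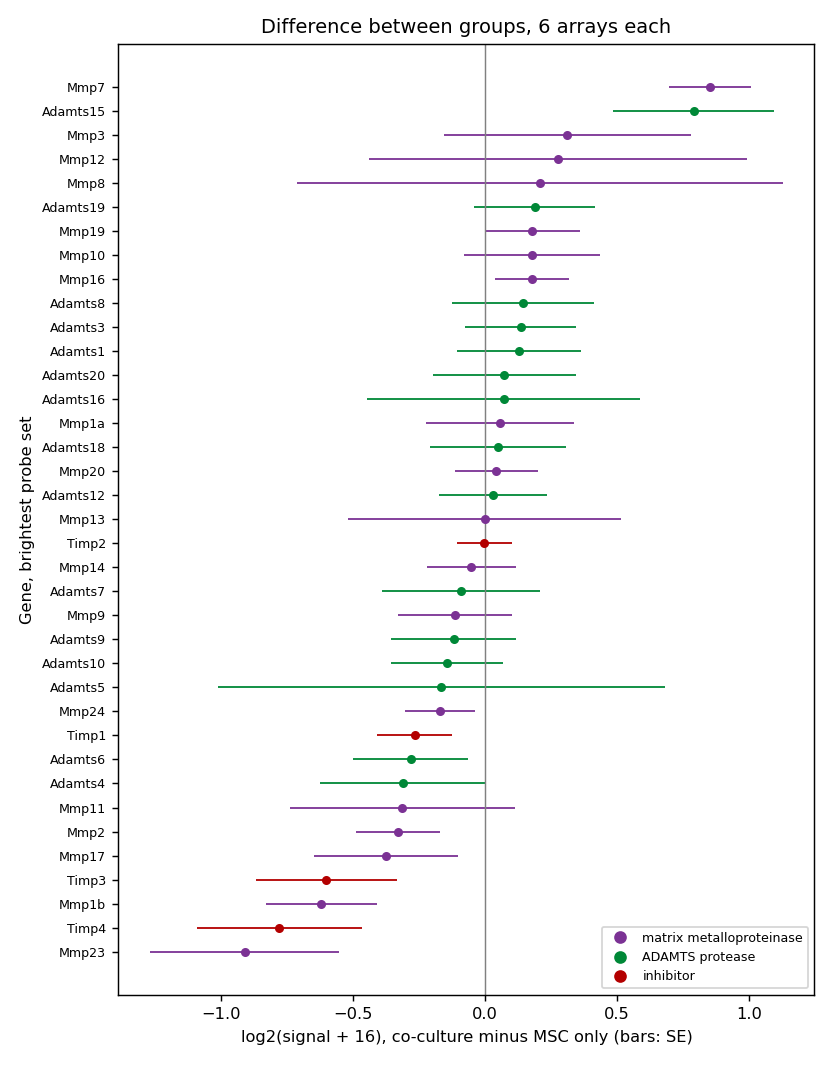
Difference between co-culture and MSC only for each of the 37 genes on the log2(signal + 16) scale, with points for the limma estimate from 6 arrays per group, bars for its SE, and colours for the 3 classes. The differences run from -0.91 for Mmp23 to 0.85 for Mmp7, and the widest bars are those of Mmp8, Adamts5 and Mmp12.

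Mmp7, matrilysin, a small protease without the hemopexin domain of its relatives, was the only member whose groups did not overlap. Its signal was 34.2 to 72.8 with a median of 36.55 in co-culture and 11.4 to 25.3 with a median of 15.1 in MSC only. All 6 co-cultures were above all 6 MSC only cultures, and co-culture 4 stood highest. The means were 42.3 ± 15.1 and 15.8 ± 5.02 (SD, n = 6), a difference of 0.85 (SE 0.16, limma adjusted p = 0.40). All of these signals are dim, since the mean of Mmp7 was at percentile 24.8. The size of the difference depended on the constant added before the log, with 1.35 for a constant of 1 and 0.40 for a constant of 64. It was 0.61 without cultures 3 and 4 and 1.34 in those cultures alone, and 1.03 and 0.68 on the positive and the negative side of the first component. The study shows Mmp7 in a heat map of genes picked on these samples and Timp2 and Timp3 in a gene set list made from them, so their direction is no independent evidence.

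Timp1, an inhibitor of most secreted metalloproteinases, had a signal of 3622 to 5912 with a median of 4401 in co-culture and 4499 to 6705 with a median of 5305 in MSC only. Co-cultures 2, 5 and 6 lay below all MSC only cultures and the other 3 within their range, and the means were 4497 ± 832 and 5397 ± 842 (SD, n = 6). The difference was -0.27 (SE 0.14, limma adjusted p = 1.0). Among cultures 1, 2, 5 and 6 alone the 4 co-cultures lay below the 4 MSC only cultures, and the difference was -0.52 (adjusted p = 0.53). In cultures 3 and 4 it was 0.24 in the opposite direction, and whether the difference depends on this split was not tested. Without cultures 3 and 4 the groups did not overlap for 2 members that were lower in co-culture, Timp1 and Mmp23, against 2.57% of all genes, and for 1 that was higher, Mmp7, against 2.47%.

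Timp2, which also takes part in activating Mmp2 at the cell surface, was the brightest member at percentile 98.9. Its signal was 13528 to 15031 with a median of 14490 in co-culture and 11497 to 16584 with a median of 14549 in MSC only. The co-cultures lay inside the MSC only range, and the difference was -0.00 (SE 0.10, limma adjusted p = 1.0). Its within-group SD, 0.15 log2 units, was the smallest of the 37 genes. The 5 other Timp2 probe sets had differences between -0.38, in a probe set with mean signals under 10, and 0.15.

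Timp3, a matrix-bound inhibitor that also acts on ADAMTS proteases, had a signal of 543.2 to 1120 with a median of 726.5 in co-culture. In MSC only it was 846.2 to 2112 with a median of 984.5. Co-cultures 3, 4 and 5 lay below all MSC only cultures, MSC only 1 stood highest, and the other 3 co-cultures overlapped with MSC only. The means were 775.4 ± 257.9 and 1204 ± 502 (SD, n = 6), a difference of -0.60 (SE 0.27, limma adjusted p = 1.0). The 4 Timp3 probe sets gave differences of -0.47 to -0.72, each with an unadjusted p under 0.05. The difference was -0.60 both without cultures 3 and 4 and in them alone, and -0.36 and -0.84 on the positive and the negative side of the first component. In bulk RNA such as this, fewer cells of a type and less RNA per cell cannot be told apart.

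Timp4 was dim, at percentile 26.7. Its signal was 5.5 to 53.6 with a median of 16.3 in co-culture and 13.4 to 71.8 with a median of 47.6 in MSC only. The groups overlapped across most of that range, and the difference was -0.78 (SE 0.31, limma adjusted p = 1.0). It shrank to -0.37 with a constant of 64, and the other Timp4 probe set gave -0.12.

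**Figure D2:**
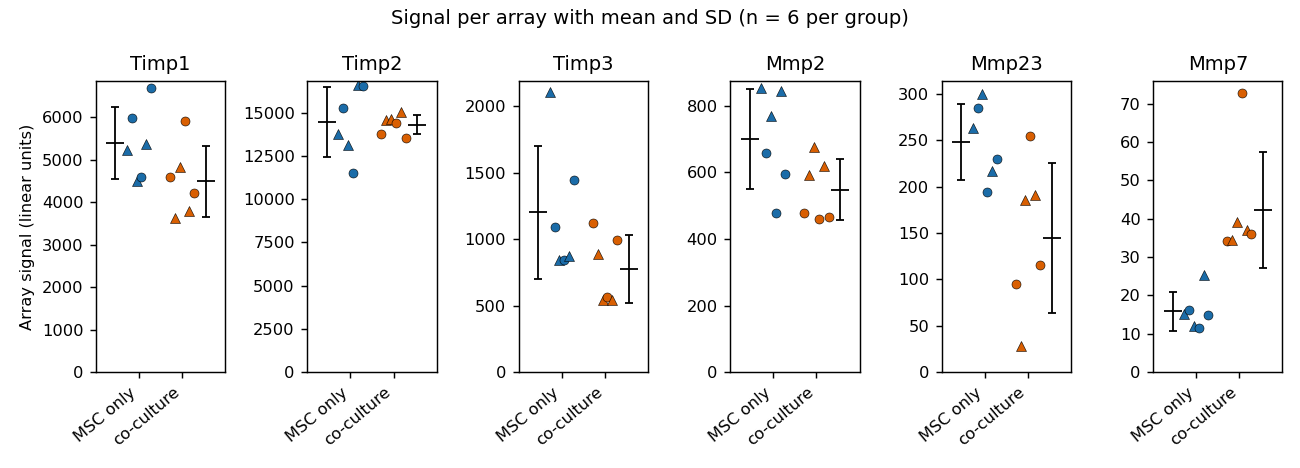
Array signal in linear units for Timp1, Timp2, Timp3, Mmp2, Mmp23 and Mmp7 in the 6 MSC only cultures (blue) and the 6 co-cultures (orange), with circles for the positive and triangles for the negative side of the first component, and black bars for mean and SD. Mmp7 is the panel without overlap, while the Timp2 points of both groups lie between 11497 and 16584.

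Among the proteases that process basement membrane and denatured collagen, Mmp2 (gelatinase A) had a signal of 459.3 to 674.9 with a median of 535.5 in co-culture and 479.3 to 854.5 with a median of 713.9 in MSC only. Co-cultures 1, 4 and 6, the positive side, lay below all MSC only cultures, and the difference was -0.33 (SE 0.16, limma adjusted p = 1.0). With the side of the first component as a block the SE fell to 0.09 and the adjusted p was 0.71. The second Mmp2 probe set gave -0.47 (limma adjusted p = 1.0). Mmp9 (gelatinase B) was at 170.3 to 330.9 with a median of 256.4 in co-culture and 156.4 to 385.5 with a median of 270.3 in MSC only, with the co-cultures inside the MSC only range and a difference of -0.12.

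Mmp23, a membrane-tethered metalloproteinase with an unusual cysteine-rich end, had the lowest difference of the members. Its signal was 28.1 to 254.6 with a median of 150.6 in co-culture and 194.2 to 300.4 with a median of 246.8 in MSC only. Of the co-cultures, 5 lay below all MSC only cultures, and co-culture 4 lay within their range. The means were 144.9 ± 81 and 248.3 ± 41.2 (SD, n = 6), a difference of -0.91 (SE 0.36, limma adjusted p = 1.0). Without co-culture 2, the lowest array, the difference was -0.58. It was -1.29 without cultures 3 and 4 and -0.14 in those alone. The second Mmp23 probe set gave -0.57 (limma adjusted p = 0.87).

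Mmp14, the membrane-type metalloproteinase that activates Mmp2, was at percentile 91.5. Its signal was 2687 to 3957 with a median of 2823 in co-culture and 2459 to 4589 with a median of 3088 in MSC only. The co-cultures lay inside the MSC only range, and the difference was -0.05 (SE 0.17, limma adjusted p = 1.0). The other membrane-type members were dimmer, with Mmp17, which is anchored by a lipid, at 10.9 to 96, and Mmp24 at 72.6 to 127.7 over the 12 arrays, at differences of -0.37 and -0.17. Mmp16 was at 56.2 to 101 with a median of 76.05 in co-culture and 55 to 80.2 with a median of 65.65 in MSC only. Of the co-cultures 3 lay above all MSC only cultures, and the difference was 0.18 (SE 0.14, limma adjusted p = 1.0).

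The aggrecan- and versican-cutting Adamts1 had a signal of 532.7 to 1462 with a median of 663.0 in co-culture and 596.4 to 912.1 with a median of 700.6 in MSC only. Co-cultures 3 and 4 were above and co-cultures 1 and 2 below all MSC only cultures, and the difference was 0.13 (SE 0.24, limma adjusted p = 1.0). It was -0.22 without cultures 3 and 4. Adamts15, another proteoglycan-cutting member, was dim, at 24.9 to 80 with a median of 50.3 in co-culture and 2.3 to 57.5 with a median of 27.4 in MSC only. The groups overlapped, and the difference was 0.79 (SE 0.30, limma adjusted p = 1.0). It ranged with the constant added from 1.37 for 1 to 0.38 for 64. Mmp1b, a counterpart of interstitial collagenase, was fainter still, at 0.4 to 12.1 in co-culture with a median of 2.2 and 1 to 25.5 in MSC only with a median of 13.3. Its difference of -0.62 (SE 0.21, limma adjusted p = 1.0) lies among the lowest signals of the array and became -1.88 with a constant of 1 and -0.22 with a constant of 64.

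Mmp19, which cuts basement membrane proteins, was at 149.6 to 330.8 with a median of 260.2 in co-culture and 186.8 to 290.7 with a median of 208.7 in MSC only, and the groups overlapped at a difference of 0.18, which was 0.44 without cultures 3 and 4 and -0.34 in those alone. Adamts19 was at 2.5 to 30.7 in co-culture and 3.5 to 16.3 in MSC only, with medians of 13.8 and 9.6, so both groups were at the dim end and overlapped, at a difference of 0.19, or -0.06 without cultures 3 and 4. The stromelysins Mmp3, at 51.7 to 330.7, and Mmp10, at 66.4 to 219.8 over the 12 arrays, had differences of 0.31 and 0.18. For Mmp3 the difference was -0.31 without cultures 3 and 4 and 1.56 in those alone, and for Mmp10 it was 0.03 and 0.47. Members with values given nowhere else, Adamts3, Adamts6 to Adamts10, Adamts12, Adamts18, Adamts20, Mmp1a and Mmp20, had differences between -0.28 for Adamts6 and 0.14 for Adamts8, with limma adjusted p-values of 1.0. Without cultures 3 and 4, 3 of these changed sign, Adamts7 to 0.10, Adamts12 to -0.13 and Adamts18 to -0.25. Of the 19 genes with more than 1 probe set, 9 had probe sets that differed in sign. At an unadjusted p under 0.05, 3 of the 70 member probe sets were higher, against 2.81% of all 45037, and 9 were lower, against 1.55%, and 0 passed after adjustment. The 9 are not independent, since 4 measured Timp3 and 2 measured Mmp23.

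Array-to-array spread was uneven among the members. The median within-group SD of log2(signal + 16) was 0.48 over the members and 0.31 over all genes. Mmp8, Adamts5, Mmp12, Adamts16 and Mmp13, picked for the largest SDs, had SDs of 1.78, 1.64, 1.38, 0.99 and 0.99, at percentiles 98.9 to 99.9 among the 1000 genes nearest in level. By this percentile all proteases ran from 1.70 for Mmp7 to 99.9 for Mmp8, and the Timps from 50.4 for Timp2 to 96.3 for Timp3. For 7 members the arrays on the positive and on the negative side of the first component did not overlap, while 30 overlapped. Mmp12 and Mmp8 were higher on the positive side (4.16% of all genes were), and Mmp13, Mmp11, Adamts4, Adamts5 and Adamts16 were higher on the negative side (4.64% of all genes were). These sides were defined from the other genes of the same arrays, so the values by side are a description with no test.

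Mmp12, macrophage elastase, had a signal of 2044 to 28169 with a median of 9005 in co-culture and 2296 to 23936 with a median of 7807 in MSC only. The groups overlapped over nearly the whole range, and the difference was 0.28 (SE 0.72, limma adjusted p = 1.0). It was 0.91 without cultures 3 and 4 and -0.99 in those alone. By side, the 6 positive arrays were at 11469 to 28169 and the 6 negative arrays at 2044 to 6032. With side as a block the SE was 0.32 and the adjusted p 0.99.

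Mmp8, the collagenase first known from neutrophils, had signals of 1248, 134.6, 118, 706.3, 153.7 and 1526 in co-cultures 1 to 6 and 60.9 to 1565 with a median of 477.6 in MSC only. Co-cultures 1, 4 and 6 were high and the groups overlapped. The difference was 0.21 (SE 0.92, limma adjusted p = 1.0), 0.62 without cultures 3 and 4 and -0.61 in those alone. The positive arrays were at 706.3 to 1565 and the negative arrays at 60.9 to 153.7. Of 10 other neutrophil markers measured, 8 had a mean signal under 50 (Elane, Mpo, Prtn3, S100a9, Ltf, Camp, Ngp and Cxcr2). The others, S100a8 and Csf3r, were brighter and together made up most of the summed list. The summed neutrophil list was 1088 to 1597 on the positive and 1068 to 1430 on the negative side, so it overlapped.

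Mmp13, the main collagenase of mouse connective tissue, followed the opposite order. Its signal was 1652 to 10223 with a median of 3235 in co-culture and 1374 to 7449 with a median of 3782 in MSC only, and the difference was -0.00 (SE 0.52, limma adjusted p = 1.0). The positive arrays were at 1374 to 2437 and the negative arrays at 4033 to 10223. Within the chromosome 9 cluster, whose sequences are shown above, Mmp13 and Mmp12 are neighbours in the order of members and were high on opposite arrays, whereas the sides overlapped for Mmp1a, Mmp1b, Mmp3, Mmp7, Mmp10 and Mmp20.

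Adamts5, the main aggrecan-cutting enzyme of mouse cartilage, had a signal of 229.7 to 3748 with a median of 1682 in co-culture and 235.1 to 3377 with a median of 1659 in MSC only. The positive arrays were at 229.7 to 1422 and the negative arrays at 1942 to 3748. The difference between groups was -0.17 (SE 0.85, limma adjusted p = 1.0), -0.92 without cultures 3 and 4, and 1.34 in those alone. Adamts4, the other classical aggrecanase, was at 145 to 355.6 with a median of 277.6 in co-culture and 171.7 to 595.1 with a median of 310.8 in MSC only, at a difference of -0.31. Its positive arrays were at 145 to 249.9 and its negative arrays at 305.3 to 595.1. Adamts16 was at 65.9 to 492.9 with a median of 155.7 in co-culture and 83.1 to 360.2 with a median of 168.8 in MSC only, and its sides were at 65.9 to 116.2 and 197.2 to 492.9. The difference of Adamts16 between groups was 0.07, 0.35 without cultures 3 and 4 and -0.50 in those alone. Mmp11, a stromelysin by name that acts on few matrix proteins, was at 38.8 to 85 on the positive and 128.2 to 313 on the negative side, with a difference of -0.31 between groups.

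**Figure D3:**
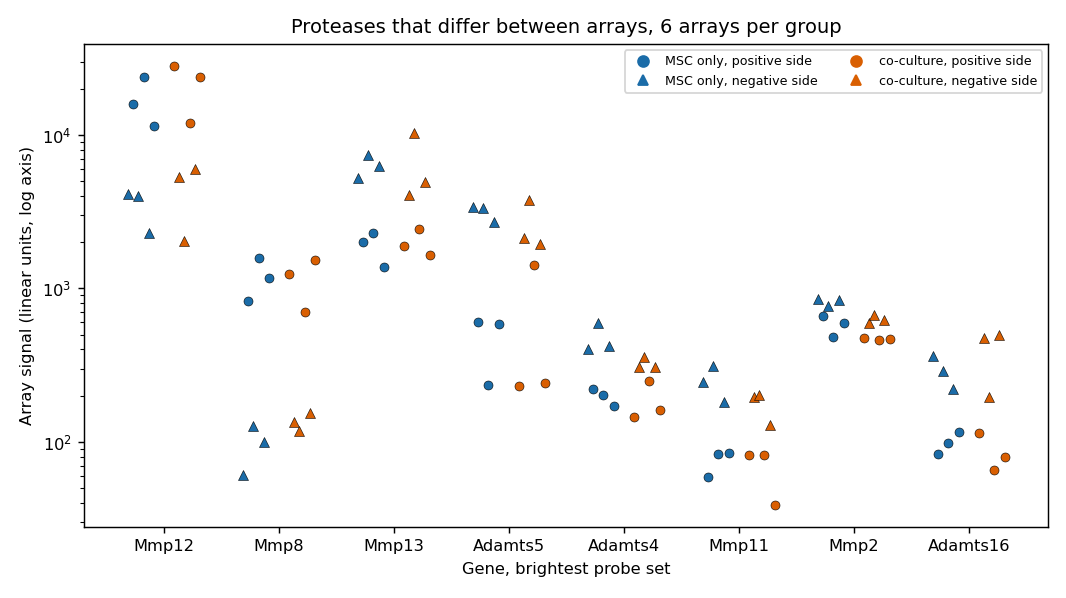
Array signal on a log axis for 8 proteases, with blue for MSC only, orange for co-culture, circles for the positive and triangles for the negative side of the first component (6 arrays per group, 3 on each side). Circles lie above triangles for Mmp12 and Mmp8 and below them for Mmp13, Adamts5, Adamts4, Mmp11 and Adamts16, while the sides overlap for Mmp2.

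The marker lists were summed on the same arrays. The summed signal of the stromal list was 22576 to 38604 on the positive and 29903 to 46418 on the negative side, and that of the macrophage list 285551 to 359542 and 319210 to 409570, so both overlapped. Their part in the split of the proteases was not tested. Within each side of 6 arrays, 14 members (the Timps and the 10 brightest proteases) were set against the mean log2 level of each list, which gave 56 relations by exact permutation test. For 10 of these the unadjusted Pearson p was under 0.05, and 0 passed after adjustment over the 56. With 6 arrays the smallest exact p is 0.00139 for r and 0.00278 for rho, at which a single relation could not pass this adjustment, so the failure to pass says little. Each side holds cultures of both groups, and group means were not removed. A relation between arrays therefore cannot be told apart here from a shift between groups. Mmp12 ran against the stromal level on the positive side, with r = -0.98 (exact p = 0.0056, adjusted p = 0.13), rho = -0.89 (exact p = 0.0333, adjusted p = 0.27) and r = -0.96 without the 2 arrays farthest from the median. On the negative side r was -0.87 (exact p = 0.0389, adjusted p = 0.23), rho was -0.94 (exact p = 0.0167, adjusted p = 0.23) and r was -0.76 without those 2 arrays. Adamts5 ran with the stromal level, with r = 0.94 on both sides (exact p = 0.0056 and 0.0097, adjusted p = 0.13 and 0.14), rho = 0.94 and 0.83 (exact p = 0.0167 and 0.0583, adjusted p = 0.23 and 0.33). Without the 2 farthest arrays r for Adamts5 was 0.99 on the positive and 0.54 on the negative side. Against the macrophage level, Adamts4 had r = -0.95 on the positive side (exact p = 0.0069, adjusted p = 0.13), rho = -0.94 (exact p = 0.0167, adjusted p = 0.23) and r = -0.89 without the 2 farthest arrays. Mmp13 had r = -0.89 on the negative side (exact p = 0.0153, adjusted p = 0.14), rho = -0.89 (exact p = 0.0333, adjusted p = 0.27) and r = -0.82 without those arrays. The other 4 relations at an unadjusted p under 0.05 were Adamts1 with the macrophage level on both sides, Adamts5 with it on the negative side and Timp1 with the stromal level on the negative side. Without the 2 farthest arrays their r was -0.34, -0.54, -0.85 and 0.03. The same members and lists were also compared over the 8 arrays with Y-linked signal, which span both sides and both groups, and no relation passed adjustment. The smallest adjusted p was 0.083, for Mmp2 with the stromal level (r = 0.95, exact permutation p = 0.003). Neither side nor group was removed there, so this r can include both, and Mmp2 differed by -0.43 between the groups in these 8 arrays. Within the positive and the negative side r for Mmp2 with the stromal level was 0.48 and 0.66.

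**Figure D4:**
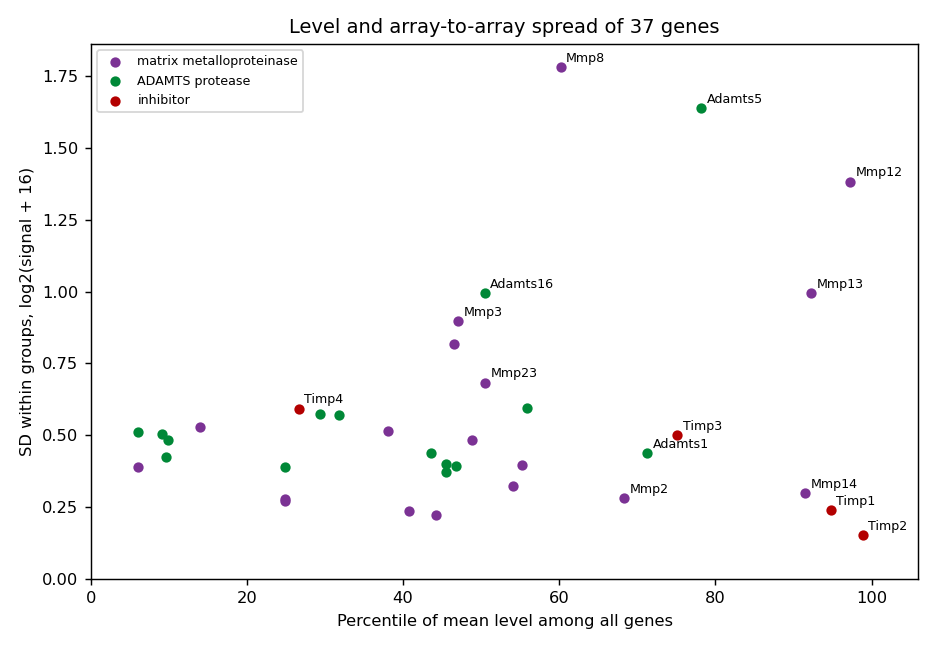
Within-group SD of log2(signal + 16) against the percentile of the mean level for the 37 genes, coloured by class, with 14 genes labelled. Mmp8 has the largest SD at 1.78 and Timp2 the smallest at 0.15, and Mmp12 combines percentile 97.3 with an SD of 1.38.

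Proteases and inhibitors were also set side by side on each array. The mean log2(signal + 16) of the 5 brightest proteases (Mmp12, Mmp13, Mmp14, Adamts5 and Adamts1) was 11.2 ± 0.34 in co-culture and 11.2 ± 0.28 in MSC only (SD, n = 6). That of the 4 Timps was 10.1 ± 0.19 and 10.6 ± 0.24. The protease mean minus the inhibitor mean was 1.08 ± 0.49 in co-culture and 0.63 ± 0.32 in MSC only, a difference of 0.45, which as a score over the members was given no p. Per array this value ran from 0.38 in co-culture 6 to 1.61 in co-culture 3, and from 0.14 in MSC only 6 to 1.15 in MSC only 3. The groups overlapped, and 3 co-cultures, 3, 4 and 5, were above all MSC only cultures. Probes differ in brightness, so the means have no common zero and only the difference between groups is read. That difference was 0.32 without cultures 3 and 4 and 0.70 in those alone. Timp4 was dim, and without it the value was -0.60 ± 0.45 in co-culture and -0.93 ± 0.40 in MSC only (SD, n = 6), a difference of 0.33.

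**Figure D5:**
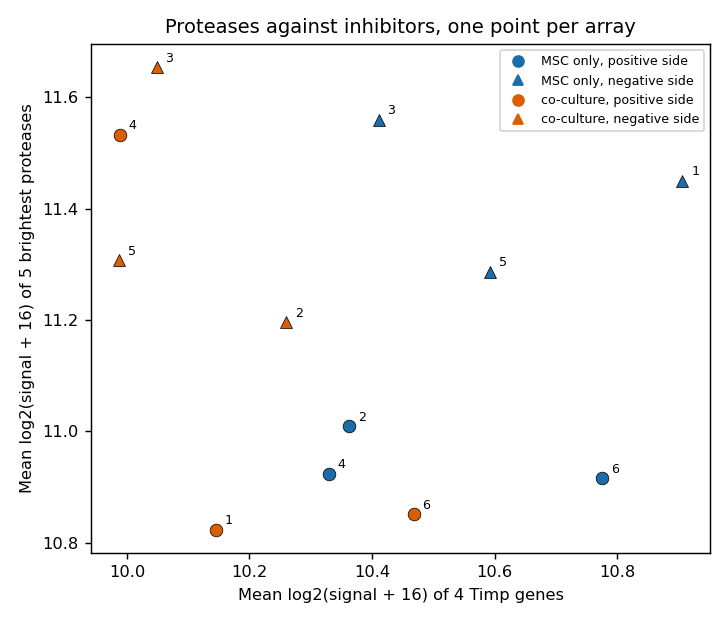
Mean log2(signal + 16) of the 5 brightest proteases against that of the 4 Timps, 1 point per array numbered by culture, with colours for the groups and shapes for the sides of the first component. The co-cultures lie mostly to the left, at inhibitor means of 9.99 to 10.5 against 10.3 to 10.9 in MSC only, while the protease means of the groups overlap.

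Other genes of pericellular proteolysis were taken from lists of activators, relatives and substrates. Of 14 measured activators and regulators, 3 had a higher and 11 a lower mean in co-culture (median -0.17), and 0 had an unadjusted limma p under 0.05 in either direction. Plau, which starts the plasmin cascade that activates several Mmps, was at 764 to 1990 on the positive and 453.5 to 670.5 on the negative side. Serpinb2, an inhibitor of that activator, was at 1018.5 to 1433 and 254.3 to 479.6. Both were higher on the positive side without overlap, as was the ADAMTS-like gene Adamtsl4, at 219.4 to 326.2 and 130.1 to 168.8. Such a split, with the positive side higher, held for 4.16% of all genes, and the sides overlapped for the other genes of these lists. The membrane inhibitor Reck was at 89.7 to 193.2 and 163.1 to 279.3, which overlapped. Of the 9 ADAM proteases 2 had a higher and 7 a lower mean, of the 6 ADAMTS-like genes 2 and 4, and of the 5 genes of the cathepsin list 4 and 1, with 0 under an unadjusted p of 0.05. Among 13 substrates 5 were higher and 8 lower. At an unadjusted limma p under 0.05, 1 of them, the brain proteoglycan Ncan, was higher, against 2.47% of all genes. Its difference was 0.51 (limma adjusted p = 1.0) at a dim signal of 48.5 ± 7.6 against 31.2 ± 14.8 (SD, n = 6). Of all genes in these lists 0 passed the adjusted threshold.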

How the data were processed

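Total RNA of 12 cultures, 6 per group, was hybridized to Affymetrix arrays. The authors used the GeneChip Operating Software. The deposited signal is an intensity per probe set on a linear scale, scaled to a common 2% trimmed mean; the summary method is not given in the sources used here. The number of arrays limits the precision, and read depth has no meaning here. Signals were taken as log2(signal + 16) and compared with limma 3.58.1 in R 4.3.3 over all 45037 probe sets, with Benjamini-Hochberg adjustment and a threshold of 0.05. The count models that the study names were not run on this signal. A gene was its brightest probe set with 1 symbol; all 37 members matched a RefSeq gene ID with the same symbol. The fit was tested on simulated data. The members and lists were chosen with earlier results of these data known. Lowest, median and highest values per group are given for the Timps and the 10 brightest proteases. They are also given for the 5 members with the smallest p in each direction and the 5 bright members with the largest spread. Mmp11 and the other genes were described by range. Plau, Serpinb2, Adamtsl4, Reck and Ncan were picked after their values were seen. Correlations were computed within the sides of the first component, since the arrays fell into 2 clusters, with both groups together and group means not removed. They were also computed, as planned, over the 8 arrays with Y-linked signal. No correlation over all 12 arrays is given. Alternatives covered scaling, the constant, a filter on dim probe sets, probe set summary, replicate and source blocks, left-out arrays, limma's trend option and the methods' test; the component side was added after seeing the data.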

Additional observations from a re-analysis of the deposited data

Results flagged for a closer look

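Each of the 21 genes described by group was examined in both groups for an array far from the other 5, which gave 42 groups, and 2 were picked out. Chance picks out about 1 in 20 such groups. Co-culture 4 had an Mmp7 signal of 72.8, and its gap to the next co-culture took a share of 0.837 of the range of that group on the log2 scale. The difference of Mmp7 without that array was 0.73. Co-culture 2 had an Mmp1b signal of 12.1, with a gap of 0.678 of the range, at a level where all co-cultures were dim; the difference of Mmp1b without it was -0.73.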

How the results depend on the processing

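The count of members with an adjusted p under 0.05 was 0 under all 29 other settings, and the lowest adjusted p of a named gene was 0.24. Leaving out the 7 settings that alter only the error or which genes are tested, 406 of 462 recomputed differences of the 21 named genes kept their direction and 56 changed sign, and 8 genes (Adamts4, Adamts15, Mmp1b, Mmp2, Mmp7, Mmp23, Timp3 and Timp4) kept it throughout. The count at an unadjusted p under 0.05, 6 in the report, was 3 with dim probe sets filtered, where dim members are not tested, 3 on the positive side of the first component alone, 9 with the first component and source side as blocks, 8 with limma's trend and robust options, and 4 to 7 with 1 array left out. The median difference of the proteases was -0.13 without cultures 3 and 4, and that of the Timps was -0.18 in cultures 3 and 4 alone. The median level percentile was 23.5 among the brighter probe sets and 44.2 on the positive side. The median within-group SD was 0.65 with a constant of 1 and 0.28 with a constant of 64. It was 0.41 in cultures 3 and 4 alone and 0.42 for the mean of a gene's probe sets, and 0.42 to 0.50 with 1 array left out, lowest without co-culture 2. With the side of the first component as a block it was 0.42, with source side added 0.39, and within the positive and the negative side 0.33 and 0.43.

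None of the differences that changed sign had an adjusted p under 0.05 in limma, and the cause was not tested. In cultures 3 and 4 alone they were 1.34 for Adamts5, -0.50 for Adamts16, -0.61 for Mmp8, 0.15 for Mmp9, -0.99 for Mmp12, 0.27 for Mmp13, 0.30 for Mmp14, -0.12 for Mmp16, -0.34 for Mmp19, 0.24 for Timp1 and 0.24 for Timp2. Without cultures 3 and 4 they were -0.22 for Adamts1 and -0.058 for Adamts19. On the negative side alone they were -0.056 for Adamts1, -0.057 for Adamts19, -0.053 for Mmp16, -0.056 for Mmp19 and 0.031 for Timp2, and on the positive side alone -0.18 for Adamts16, -0.059 for Mmp8 and 0.088 for Mmp13. Mmp13 became 0.015 under quantile normalization and 0.0091 with 75th percentile centring, where Timp2 became 0.0066, and Mmp14 became 0.024 for the mean of its probe sets. With each array left out in turn the ranges were -0.056 to 0.23 for Adamts1, -0.61 to 0.26 for Adamts5, -0.21 to 0.32 for Adamts16, -0.23 to 0.64 for Mmp8, -0.062 to 0.70 for Mmp12, -0.32 to 0.22 for Mmp13, -0.13 to 0.052 for Mmp14 and -0.068 to 0.038 for Timp2.

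Replicate numbers are shared by the groups, but deviations of same-numbered cultures correlated at -0.16 to 0.15 and 1 of 6 numbers matched best with itself. Of the 6 correlations 4 were over 0.1 and the other two, for numbers 1 and 2, were below 0, so the numbers were not taken to pair the cultures. The same 4 numbers lay on 1 side of the first component in both groups. Y-linked signal was absent at numbers 3 and 4 and present at 1, 2, 5 and 6 in both groups, so it matched by number. Whether the numbers pair the cultures is therefore not settled. With a replicate block 6 members were at an unadjusted p under 0.05 and 0 passed adjustment. Timp3 and Mmp2 were lower in co-culture at each of the 6 numbers, and with the block the SE was 0.11 for Timp3 (limma adjusted p = 0.73) and 0.13 for Mmp2 (limma adjusted p = 1.0). No detection calls were used, so dim members such as Mmp1b, Timp4, Adamts15 and Mmp7 rest on low signals, and 6 arrays per group limit the precision.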
